A study of Mus musculus with 24 samples.

Results

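The 8 IGF2BP1-driven mouse tumors (TI) were ordered by the level of the mouse Mycn gene, and the 4 tumors with the highest Mycn (Mycn-high, tumors 5 to 8) were set against the 4 with the lowest (Mycn-low, tumors 1 to 4). These 8 are part of a series of 24 RNA-seq libraries made strand-specifically from poly(A) RNA. The measured Mycn level chose the sets, so the difference in Mycn between them is a description and carries no test. Tumors are numbered from 1, the lowest Mycn, to 8, the highest.

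TI tumors arose in mice that carry an IGF2BP1 transgene at the Rosa26 locus, behind a stop cassette that a Cre recombinase under the Dbh promoter (active in noradrenergic cells) removes. Per the labels, 1 TI tumor was IGF2BP1 +/-, CRE + and 7 were IGF2BP1 +/+, CRE +, and all 8 are labelled as neuroblastoma tumors, 1 of them from the adrenal gland. The background groups were adrenal glands of CRE - mice (AG, n = 3), tumor-free adrenal glands of MYCN +/-, CRE + mice (AGM, n = 5) and tumors of IMP1/MYCN, CRE + mice, which carry both transgenes (TIM, n = 8; IMP1 is another name of IGF2BP1). The mice had been backcrossed to C57Bl6/N, and TI mice were culled at different ages, when they met termination criteria, so that the age behind a column was not known. TI tumors carry no MYCN transgene, and in every group the values of Mycn are those of the mouse gene. The mouse Igf2bp1 gene was at 0 to 0.0157 FPKM in the 8 TI tumors. FPKM stands for fragments per kilobase of gene and per 1000000 fragments. The values are as deposited after the study's scaling of library totals (TMM), so the total behind a value is not the library's own read count. The level of the transgene was not analysed here, so it could not be set beside Mycn. It was also not possible to tell which column was the heterozygous tumor, the adrenal tumor or the tumors of sequencing runs 2 and 3 (1 TI tumor each, against 6 in run 1). No value could therefore be repeated within a run. As the study describes the tumors, each came from a different mouse, so p-values measure the spread between mice.

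MYCN is a transcription factor of the MYC family that binds DNA together with MAX, with the E-box CACGTG as its best known site, and drives genes for ribosome production, nucleotide synthesis and cell division. It is high in the early sympathetic neuroblasts from which neuroblastoma arises, and its amplification marks the high-risk form of the disease. IGF2BP1 is an RNA-binding protein of fetal tissues that stabilizes target mRNAs, among them those of MYCN. Mouse Mycn lies on the minus strand of chromosome 12 (GRCm39, chr12:12986076-12992915).

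Mycn in tumors 1 to 4 was 1.57, 3.47, 5.05 and 7.43 FPKM, and in tumors 5 to 8 it was 7.90, 12.8, 14.7 and 15.6 FPKM. The order is close to a continuum, and the border between the sets runs through a gap of 0.475 FPKM between tumors 4 and 5. The mean was 12.8 ± 3.45 FPKM in Mycn-high (SD, n = 4) and 4.38 ± 2.48 FPKM in Mycn-low (SD, n = 4), a ratio of 2.91, and the highest tumor held 9.96 times the level of the lowest. These levels rest on 563 to 6592 recovered reads of Mycn (value times gene length in units of 1 read) among 12468968 to 21353172 in a library. All 8 TI tumors lay above the adrenal glands, which had 0.654 ± 0.147 FPKM in AG (SD, n = 3) and 0.778 ± 0.254 FPKM in AGM (SD, n = 5). TIM tumors ranged from 1.20 to 4.38 FPKM with a median of 2.97, so their mouse Mycn overlapped that of tumors 1 and 2 and lay below that of tumors 3 to 8.

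**Figure D1:**
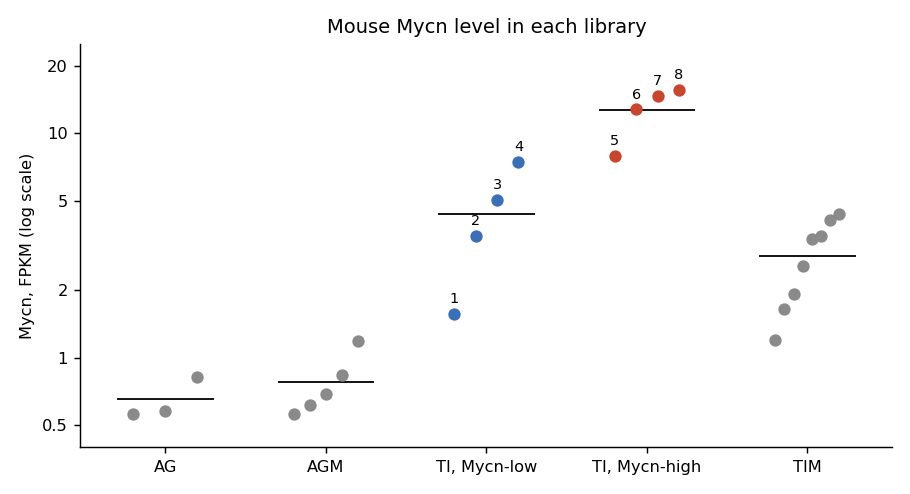
Mouse Mycn level (FPKM, log axis) in each of the 24 libraries by group, with the group mean as a line and TI tumors numbered by Mycn. Tumors 4 and 5, at 7.43 and 7.90 FPKM, lie next to each other across the border of the sets.

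A pair of TI libraries stood apart in what else they held. Tumor 1 had the highest summed level of 12 endothelial markers, 90.1 FPKM against 7.78 to 28.3 FPKM in the other 7 tumors, and of 12 fibroblast and pericyte markers, 152 FPKM against 15.9 to 60.0 FPKM. Tumor 3 had the highest sum of 12 adrenal cortex markers, 21.1 FPKM against 3.42 to 7.81 FPKM, though AG glands had 832 ± 18.1 FPKM (SD, n = 3). Both are Mycn-low. The first principal component of the 6996 tested genes (39.7% of the variance) had tumors 1 and 3 at one end, and the median correlation between pairs of Mycn-low libraries was 0.875 over 6 pairs, against 0.935 over 6 pairs in Mycn-high and 0.910 over 16 pairs between the sets. The 10 sympatho-adrenal markers, among them Hand2, Gata3 and Dbh, all passed the filter on low values, and their sum was 251 to 1780 FPKM over the 8 tumors against 177 ± 32.4 FPKM in AG (SD, n = 3). Lymphocyte markers summed to 0.179 to 1.78 FPKM. In bulk tissue, fewer cells of a type and less RNA per cell cannot be told apart.

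To see which genes went with Mycn, 6996 genes other than Mycn with at least 1 FPKM in at least 4 of the 8 TI tumors were compared as log2(FPKM + 1). With the added 1, differences of low genes come out smaller than they are. Of these, 31 had at least 1 FPKM in every tumor of one set and in none of the other, so that they passed the filter through 1 set. The sets differed little over most genes. The median difference, Mycn-high minus Mycn-low, was 0.02, and the middle 50% of genes lay between -0.17 and 0.20. A gene was called apart if the 4 values of one set all exceeded the 4 of the other and the means differed by at least 1. That held for 3 genes higher in Mycn-high (0.0429% of those tested) and for 13 lower (0.186%). Without the condition on size, 250 genes were higher without overlap (3.57%) and 248 were lower (3.54%). With FPKM rescaled by each library's total outside genes above 1000 FPKM in any library, 15 were called higher and 19 lower, and 350 were higher and 202 lower without overlap. As these counts follow from sets chosen on Mycn, they are a description.

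The test used the Mycn level itself. Each other gene was fitted with limma on log2(Mycn FPKM + 1) over the 8 TI tumors, which gives a slope, the change of the gene's log2(FPKM + 1) per unit of Mycn on the same scale. With Benjamini-Hochberg adjustment over all tested genes, 2 genes (0.0286%) passed an FDR of 0.05, and both fell with rising Mycn: Gal and Mfge8. At an unadjusted p below 0.05 there were 1160 genes (16.6%), 680 with a positive and 480 with a negative slope, but 424 when tumor 1 was left out and 340 when tumors 1 and 3 were left out.

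Gal encodes galanin, a neuropeptide that many neuroblastoma and sympathetic cells release. Its gene lies on chr19:3459912-3464881 (minus strand, GRCm39). Gal was at 20.001, 9.38, 6.50 and 1.80 FPKM in tumors 1 to 4 and at 1.43, 0.397, 0.621 and 0.317 FPKM in tumors 5 to 8. The level dropped at nearly every step of the Mycn order, and the sets did not overlap. The slope was -1.55 ± 0.113 (SE, limma, FDR 0.000596), and it was -1.49 without tumors 1 and 3 (limma, FDR 0.0476). It passed with each tumor left out in turn, but not when the spread was shared with the TIM tumors (limma, FDR 0.359). Gal was the only gene of the 16 called apart whose slope passed the FDR. In adrenal glands Gal was at 3.18 ± 0.487 FPKM in AG (SD, n = 3) and at 93.3 ± 30.8 FPKM in AGM (SD, n = 5). When at least 1 FPKM was required in every TI library, Gal was not tested, as tumors 6 to 8 were below that level.

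Mfge8 encodes a secreted glycoprotein that bridges dying cells to the cells that engulf them. It was at 9.19, 4.15, 3.45 and 1.91 FPKM in tumors 1 to 4 and at 2.74, 1.93, 1.14 and 1.11 FPKM in tumors 5 to 8, so the sets overlapped at tumor 4. The slope was -0.77 ± 0.0874 (SE, limma, FDR 0.0184). It no longer passed without tumor 1 (-0.65, limma, FDR 0.74), nor without tumor 5, 7 or 8 (limma, FDR 0.0569, 0.125 and 0.188). It also missed the FDR with rescaled FPKM, without the filter, with the rank of Mycn, with a mitosis score as covariate, with limma-voom and with the shared spread (limma, FDR 0.0667 to 0.462).

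The next genes by p, none of which passed, included endothelial genes. Gpihbp1, which anchors lipoprotein lipase on capillary endothelium, had a slope of -0.98 ± 0.134 (SE, limma, FDR 0.0603) with values from 11.2 FPKM in tumor 1 to 0.658 FPKM in tumor 8. Plvap, a protein of endothelial fenestrae, had a slope of -1.22 ± 0.173 (SE, limma, FDR 0.0626), with 45.2 FPKM in tumor 1 and 2.65 to 14.9 FPKM in the others. The immediate early gene Fos had a slope of -1.08 ± 0.171 (SE, limma, FDR 0.0805). These 3 genes had their highest value in tumor 1, the library with the highest endothelial sum. The part of endothelial content in their slopes was not tested.

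On the positive side the smallest FDR was that of Mis12, a kinetochore protein, at 0.0626 (limma, slope 0.42 ± 0.0611, SE). Mis12 was at 0.808, 1.19, 1.21 and 1.91 FPKM in tumors 1 to 4 and at 2.07, 2.45, 2.8003 and 2.81 FPKM in tumors 5 to 8, in the same order as Mycn in all 8. Shmt1, a folate enzyme of one-carbon metabolism, Trib2, a pseudokinase, Nol9, a kinase of pre-rRNA processing, and Gtf2a1, a subunit of the general transcription factor TFIIA, followed, each with an FDR of 0.12 (limma). Their slopes were 0.50, 0.52, 0.36 and 0.31. Trib2 and Gtf2a1 lie on chromosome 12, as Mycn does. Mis12 and Shmt1 lie on chromosome 11, as Igf2bp1 does, and Nol9 on chromosome 4. From sequencing of tumor DNA, the study reports frequent copy number gains on the chromosomes of Mycn and Igf2bp1 in TI tumors. The part of such gains in these slopes was not tested. Fos, with its negative slope, lies on chromosome 12 too. The differences are small in absolute terms: Nol9 ranged from 0.391 to 2.13 FPKM and Gtf2a1 from 1.33 to 3.01 FPKM.

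The genes most like Mycn over the 8 tumors were ranked by Pearson's r of log2(FPKM + 1), as a description. Gtf2a1 had r = 0.986, Mis12 0.983, Cbll1 (an E3 ligase of the m6A writer complex) 0.978, Mthfd1 (a folate enzyme) 0.972 and Toe1 (an RNA exonuclease) 0.968. With the 2 tumors farthest from the median Mycn left out, these values were 0.985, 0.969, 0.963, 0.915 and 0.879. Each of the 8 points shares its library with the Mycn value. Gtf2a1, Cbll1 and Mthfd1 lie on chromosome 12, as Mycn does. Mis12 lies on chromosome 11, as Igf2bp1 does, and Toe1 on chromosome 4. Chromosome 12 holds 272 of the 6996 tested genes. Whether the shared chromosome, or copy number gains of the kind the study reports, have a part in these values was not tested.

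**Figure D2:**
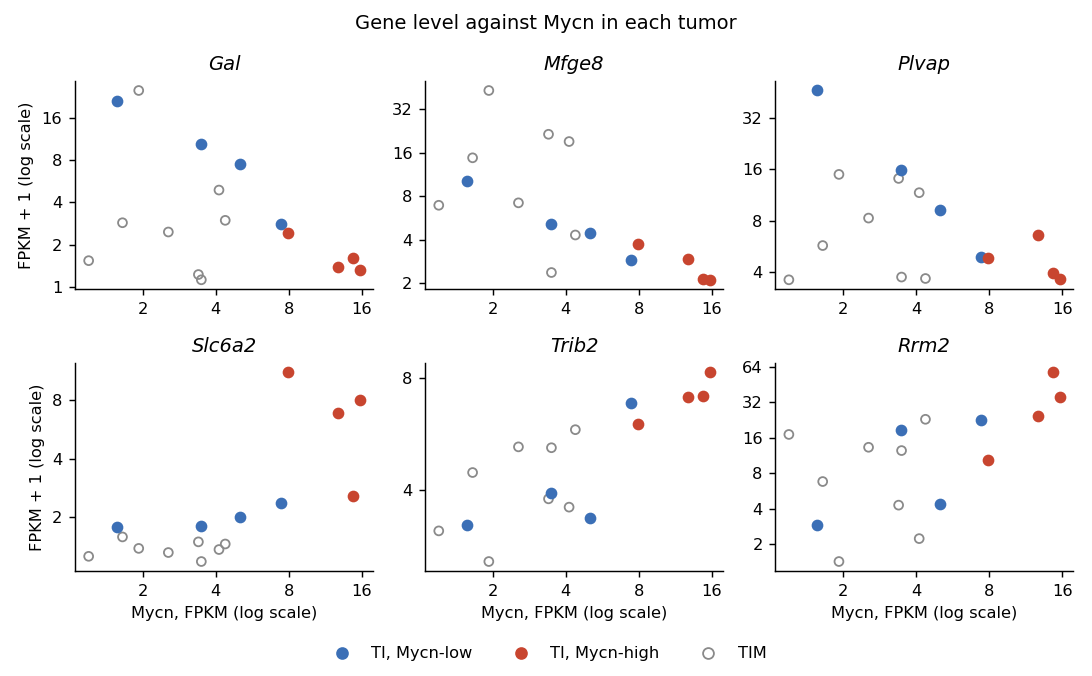
Level of 6 genes (FPKM + 1, log axis) against Mycn (FPKM, log axis), 1 point per tumor; filled points are TI tumors and open points TIM tumors. Gal, Mfge8 and Plvap decline over the TI tumors, Slc6a2 is above 1.5 FPKM in tumors 5 to 8 alone, and the TIM points show no such order for Gal.

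Of the 3 genes called apart and higher, Slc6a2 had the largest difference. It encodes the noradrenaline transporter, which takes the transmitter back into sympathetic cells and carries the tracer MIBG. Slc6a2 was at 0.792, 0.796, 1.01 and 1.36 FPKM in tumors 1 to 4 and at 10.1, 5.87, 1.57 and 7.03 FPKM in tumors 5 to 8, a mean difference of 1.67 on the log2(FPKM + 1) scale. Tumor 7 was only slightly above tumor 4, whereas tumors 5, 6 and 8 stood clear. The slope of Slc6a2 was 0.72 ± 0.287 (SE, limma, FDR 0.26), as its highest value was in tumor 5 and not at the highest Mycn. Zscan5b, a zinc finger gene, was at 0 to 1.07 FPKM in Mycn-low and 1.66 to 5.55 FPKM in Mycn-high. Lix1 was at 0.180 to 1.47 FPKM in Mycn-low and 1.78 to 4.89 FPKM in Mycn-high. Both had a difference of 1.16, and neither slope passed (limma, FDR 0.361 and 0.201).

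The 13 genes called apart and lower in Mycn-high were led by Gal, with a difference of -2.33. Pcsk1n, an inhibitor of prohormone convertase 1 in secretory granules, was at 91.4, 66.4, 77.5 and 53.6 FPKM in tumors 1 to 4 and 39.6, 32.5, 25.6 and 25.3 FPKM in tumors 5 to 8. Cebpb, a transcription factor of stress and inflammation, was at 2.30 to 5.63 FPKM in Mycn-low and at 0.511 to 2.01 FPKM in Mycn-high. Trp53i11, a p53-induced gene, was at 8.22 to 12.5 FPKM in Mycn-low and at 3.52 to 5.10 FPKM in Mycn-high. Selenom, a selenoprotein of the endoplasmic reticulum, was at 8.83 to 13.8 against 4.07 to 5.05 FPKM, and Vstm2l at 31.5 to 48.5 against 8.62 to 23.3 FPKM. Gm13889 was at 11.3 to 25.9 against 3.01 to 9.82 FPKM. The prefoldin subunit Pfdn5 and the ribosomal protein genes Rps27, Rps15, Rpl37, Rps20 and Fau (its ubiquitin-like fusion yields Rps30) made up the rest. Except for Gal, none of their slopes passed (limma, FDR of the others named at least 0.109).

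Neuropeptide and granule genes beside Gal were spread widely among the tumors. The largest difference of any tested gene was that of Npy, neuropeptide Y, at -3.50. Npy was at 325, 154, 376 and 24.1 FPKM in tumors 1 to 4 and at 48.0, 83.2, 1.39 and 1.95 FPKM in tumors 5 to 8, so that tumor 4 overlapped the high set, and the slope of -2.40 ± 0.57 did not pass (SE, limma, FDR 0.135). Chga, chromogranin A, differed by -2.05, but tumor 3 alone had 926 FPKM and tumor 4 had 22.6 FPKM, within the Mycn-high range of 12.6 to 165 FPKM. Of the 16 tested genes of catecholamine synthesis and storage, 11 were lower in Mycn-high, with a median of -0.48. Slc6a2 was called apart, and Slc18a1, a vesicular monoamine transporter named here after its values were seen, was lower without overlap. None had a slope past the FDR, and at an unadjusted p below 0.05 there were 1 positive and 3 negative slopes. All 6996 tested genes held 680 positive and 480 negative slopes at that p. Without overlap, 3.57% of them were higher and 3.54% lower. With tumors 1 and 3 left out the median was -0.05. Th, tyrosine hydroxylase, the rate-limiting enzyme of the pathway, was at 181, 105, 235 and 18.1 FPKM in tumors 1 to 4 and 101, 90.0, 21.5 and 74.0 FPKM in tumors 5 to 8, and tumors 4 and 7, from opposite sets, had the lowest values.

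The adrenergic core transcription factors, which define the sympathetic identity of most neuroblastoma cells, had a median difference of 0.54 over 15 tested members, 11 of them higher. Tfap2b alone was higher without overlap (named after its values were seen), against 3.57% of all tested genes. No member had a slope past the FDR. A positive slope at an unadjusted p below 0.05 was found for 5 members, against 680 of all 6996 tested genes. Tlx2 had the largest difference of the list, 1.16, but its values were mixed between the sets. It was at 4.12, 9.79, 0.528 and 0.650 FPKM in tumors 1 to 4 and at 9.34, 2.39, 4.44 and 17.0 FPKM in tumors 5 to 8. Sox11 differed by 0.93, with 0.607 FPKM in tumor 3 and 4.85 to 10.4 FPKM in Mycn-high. Phox2a differed by 0.91, with 9.11 FPKM in tumor 1 and 107 FPKM in tumor 3. The median of the list was 0.09 without tumors 1 and 3. Alk, a receptor kinase of neuroblastoma, was at 0.905 to 1.67 FPKM in Mycn-low and at 7.03, 3.07, 0.939 and 3.13 FPKM in tumors 5 to 8. As with Slc6a2, tumor 7 had the level of the low set and tumor 5 the highest, and the slope of Alk was 0.15 ± 0.234 (SE, limma, FDR 0.774).

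Genes of the S phase were higher in Mycn-high, with a median difference of 0.47 over 28 tested members, 27 of them positive, and those of G2 and mitosis had a median of 0.33 over 35, 33 of them positive. None was without overlap. At an unadjusted p below 0.05, 19 S phase and 23 G2 and mitosis genes had a positive slope and none a negative one, and none passed the FDR. Over all 6996 tested genes, 680 had a positive slope at that p. Rrm2, the small subunit of ribonucleotide reductase, was at 1.94, 17.5, 3.41 and 21.7 FPKM in tumors 1 to 4 and at 9.35, 23.7, 56.5 and 34.6 FPKM in tumors 5 to 8. Top2a, DNA topoisomerase II, was at 1.13, 9.33, 2.48 and 14.2 FPKM and at 7.601, 8.03, 16.6 and 11.3 FPKM. In both genes tumors 1 and 3 were the lowest, while tumors 2 and 4 were at or above tumor 5. When tumors 1 and 3 were left out, the median was -0.09 for S phase and -0.21 for G2 and mitosis, with no member at an unadjusted p below 0.05. Birc5, the survivin gene, followed the same order, with 2.14 and 2.48 FPKM in tumors 1 and 3 and 4.93 to 14.5 FPKM in the other 6 (slope 0.48 ± 0.258, SE, limma, FDR 0.369). AG glands, which hardly divide, summed to 21.8 ± 1.58 FPKM over the G2 and mitosis list (SD, n = 3), against 52.3 FPKM in tumor 1, 97.6 FPKM in tumor 3 and 126 to 319 FPKM in the other 6 tumors. Polycomb and DNA methylation genes, many of which are expressed in dividing cells, had a like order: the median was 0.37 over 10 tested members, with Ezh2 at 0.62, Dnmt3a at 0.61, Cbx2 at 0.56 and Tet3 at 0.52. There, 8 had a positive slope at an unadjusted p below 0.05, 0 passed the FDR, and 0 reached an unadjusted p below 0.05 without tumor 1.

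**Figure D3:**
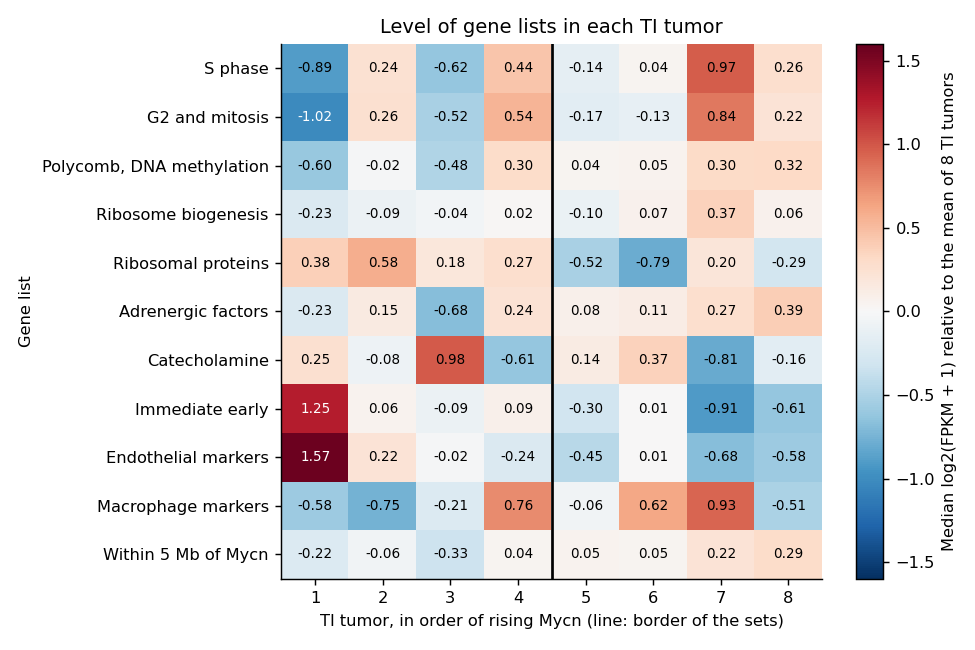
Median level of 11 gene lists in each TI tumor, as log2(FPKM + 1) relative to the mean of the 8 tumors; columns are tumors in order of Mycn and the line is the border of the sets. The cell cycle lists are lowest in tumors 1 and 3 (-1.02 and -0.52 for G2 and mitosis) and highest in tumor 7 (0.84).

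**Figure D4:**
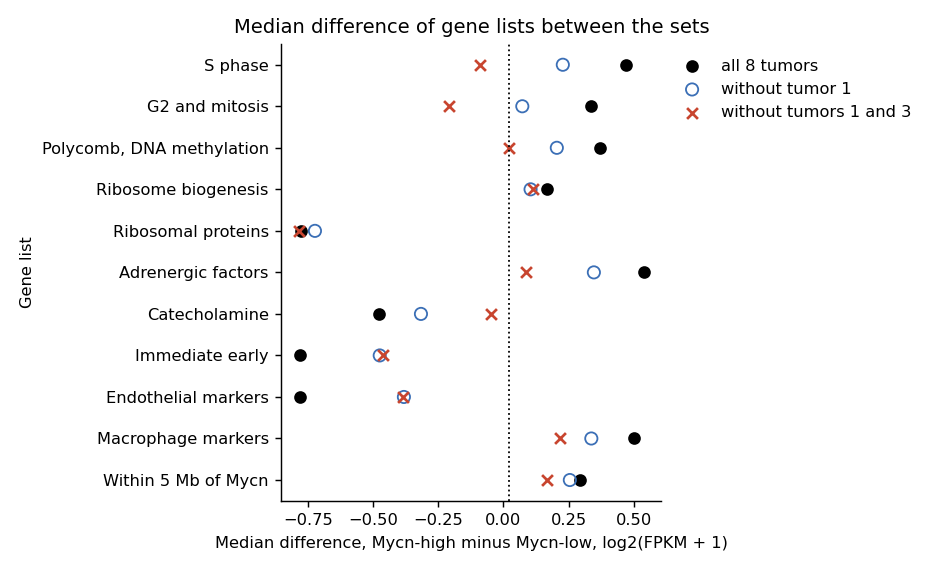
Median difference between the sets for 11 gene lists, with all 8 tumors (filled), without tumor 1 (open) and without tumors 1 and 3 (cross); the dotted line is the median of all tested genes. Ribosomal protein genes stay near -0.78, whereas the S phase median passes from 0.47 to -0.09.

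Among genes for ribosome biogenesis and other known MYC targets, such as processing factors of pre-rRNA, nucleotide enzymes and chaperones, the median difference was 0.17 over 38 tested members, 31 of them positive. Cad, Hspd1 and Wdr43 were higher without overlap, as were 3.57% of all tested genes. Cad, the enzyme that starts pyrimidine synthesis, was at 0.718 to 1.31 FPKM in Mycn-low and 1.53 to 2.17 FPKM in Mycn-high, and Hspd1, a mitochondrial chaperone, at 9.58 to 12.7 and 15.2 to 16.9 FPKM. In the fit, 10 members had a positive slope at an unadjusted p below 0.05 (5 without tumors 1 and 3), none a negative one, and none passed the FDR. Among all 6996 tested genes, 680 had a positive slope at that p with all 8 tumors. Odc1, the rate-limiting enzyme of polyamine synthesis and a classical MYC target, was at 7.96, 9.94, 5.90 and 14.1 FPKM in tumors 1 to 4 and 7.19, 10.2, 20.2 and 7.64 FPKM in tumors 5 to 8, and its slope was 0.21 ± 0.181 (SE, limma, FDR 0.58). Nme1, a nucleoside diphosphate kinase and another MYC target, had a difference of -0.13. Neither gene separated the sets. The other MYC paralogs were low: Myc was at 0.400 to 1.74 FPKM and below the filter, and Mycl at 0.0470 to 2.797 FPKM.

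The genes for cytosolic ribosomal proteins had the opposite sign. All 78 tested members (of 83 in the table) were lower in Mycn-high, with a median of -0.78. Of these, 27 were lower without overlap (against 3.54% of all tested genes), 4 of them called apart (against 0.186%). The summed level of the 83 genes was 8339, 9226, 6933 and 7458 FPKM in tumors 1 to 4 and 4093, 3305, 6791 and 5017 FPKM in tumors 5 to 8, with tumor 7 close to tumor 3. AG glands had 3921 ± 175 FPKM (SD, n = 3), so the Mycn-low sums were above those of the gland and the Mycn-high sums around or above them. Rps15 was at 563, 535, 373 and 397 FPKM and at 177, 118, 296 and 200 FPKM. The median was -0.79 without tumors 1 and 3. In the fit, 28 members had a negative slope at an unadjusted p below 0.05, 3 without tumors 1 and 3, and none passed the FDR. Among all 6996 tested genes, 480 had a negative slope at that p with all 8 tumors. How reads shared with the many processed pseudogenes of these genes were counted is not given in the sources used here.

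Other short genes had the sign of the ribosomal protein genes. The 177 other tested genes shorter than 1000 bases had a median difference of -0.29, and 137 were lower in Mycn-high. Across 4 quartiles of gene length the median difference was -0.13 for the shortest, 0.00 and 0.05 for the next, and 0.12 for the longest, and -0.11 for the shortest without ribosomal protein genes. Of the genes without overlap, the shortest quartile held 21 higher and 129 lower, and the longest 110 higher and 14 lower. Gal, at 788 bases, and Npy, at 566 bases, belong to the short genes. Whether library quality or composition has a part in this length trend was not tested.

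Markers of other cell types and immediate early genes were compared as well. The 5 tested endothelial genes (Plvap, Cdh5, Eng, Esam and Pecam1) were all lower in Mycn-high, with a median of -0.78, and each had a negative slope at an unadjusted p below 0.05, none past the FDR (limma, smallest 0.0626). Over all 6996 tested genes, 480 had a negative and 680 a positive slope at that p. The endothelial sum in tumors 1 to 4 was 90.1, 28.3, 19.3 and 12.1 FPKM, against 10.01, 16.5, 7.78 and 8.03 FPKM in tumors 5 to 8, and 53.1 ± 2.29 FPKM in AG (SD, n = 3). Without tumors 1 and 3 the median was -0.38 and 3 of the 5 had an unadjusted p below 0.05. The 8 tested macrophage and antigen presentation genes were all higher, with a median of 0.50 and 4 positive slopes at an unadjusted p below 0.05. Their sums, 32.1 to 117 FPKM in Mycn-low and 48.4 to 129 FPKM in Mycn-high, overlapped widely. Lyz2, a lysozyme of macrophages, was at 28.97 FPKM in tumor 4 and 31.0 FPKM in tumor 7 and at 15.6 FPKM in tumor 8. The 10 tested immediate early genes, which cells switch on within minutes of stress or growth signals, were all lower in Mycn-high, with a median of -0.78 and 9 negative slopes at an unadjusted p below 0.05 (3 without tumors 1 and 3). Fos was at 14.4, 4.55, 1.41 and 2.32 FPKM in tumors 1 to 4 and 1.49, 1.73, 0.191 and 0.728 FPKM in tumors 5 to 8. None of the 3 tested Schwann cell genes and the 6 tested fibroblast and pericyte genes was without overlap. Of all tested genes, 3.57% were higher and 3.54% lower without overlap, so this count cannot show whether these cell types differ. One gene each was tested for adipocytes (Fabp4) and red blood cells (Alas2). Fabp4 was lower without overlap, at 1.20 to 2.07 against 0.167 to 0.452 FPKM, having passed the filter through the Mycn-low set alone.

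Other lists differed less. The 10 tested genes of p53 and its targets had a median of -0.15: Trp53 itself was higher without overlap, at 3.21 to 6.08 FPKM in Mycn-low and 6.08 to 9.62 FPKM in Mycn-high, which nearly touch, and Phlda3, a p53 target that restrains AKT signalling, was lower without overlap, at 9.06 to 10.6 and 4.33 to 7.55 FPKM. Neither slope passed (limma, FDR 0.155 and 0.362). Cdkn1a, the p21 inhibitor of the cell cycle, was at 11.9 to 24.5 and 8.42 to 17.8 FPKM. The study's adrenergic signature had a median of 0.18 over 249 tested genes and its mesenchymal signature one of -0.17 over 204, and without tumors 1 and 3 both were at 0.01. The 5 tested MHC class I presentation genes were all lower, with a median of -0.33, and B2m was highest in tumor 3, at 69.9 FPKM. Regulators of MYCN protein turnover, among them the kinases Aurka and Plk1, had a median of 0.26 over 10 members. Aurka, whose product shields MYCN from degradation, was at 1.11 to 6.54 FPKM in Mycn-low and 3.35 to 9.08 FPKM in Mycn-high, with the lowest values in tumors 1 and 3.

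The neighbours of Mycn on chromosome 12 were examined because in human neuroblastoma the amplified segment often takes DDX1 and NBAS with it. Within 5 Mb of Mycn, 16 of 39 genes were tested, 13 of them higher in Mycn-high, with a median of 0.30. Ddx1 was at 3.97, 4.68, 4.05 and 5.51 FPKM in tumors 1 to 4 and 4.67, 5.40, 6.47 and 7.15 FPKM in tumors 5 to 8 (slope 0.23 ± 0.0821, SE, limma, FDR 0.231). Nbas was at 0.729 to 1.57 FPKM and at 2.31, 2.08, 0.859 and 2.50 FPKM. Trib2, with 2.23 to 5.86 FPKM in Mycn-low and 5.01 to 7.29 FPKM in Mycn-high, had the largest difference of the segment, 0.78. Pum2 and Smc6 were higher without overlap, and 7 of the 16 had a positive slope at an unadjusted p below 0.05, none past the FDR. Over all 6996 tested genes, 3.57% were higher without overlap and 680 had a positive slope at that p. Over the whole of chromosome 12, 22 of 272 tested genes were higher without overlap (8.09%, against 3.57% of all tested genes). Only 1 was lower (0.368%, against 3.54%). Both directions together came to 8.46%, against 7.12% of all tested genes. The median difference was 0.18 on chromosome 12 and also on chromosome 1. Chromosome 1 had 39 higher and 6 lower of 339 genes (11.5% and 1.77%, together 13.3%). Chromosome 19, which holds Gal, had 3 higher and 26 lower of 245 (1.22% and 10.6%, together 11.8%). Relative to the median of all genes in a tumor, chromosome 12 ranged from -0.15 in tumor 1 to 0.24 in tumor 8, with -0.03 in tumor 5 below 0.00 in tumor 4, so the sets overlapped. In TI tumors the study reports frequent copy number gains on the chromosome of Mycn and on that of Igf2bp1. Copy number was not analysed here, so its part in these differences was not tested.

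**Figure D5:**
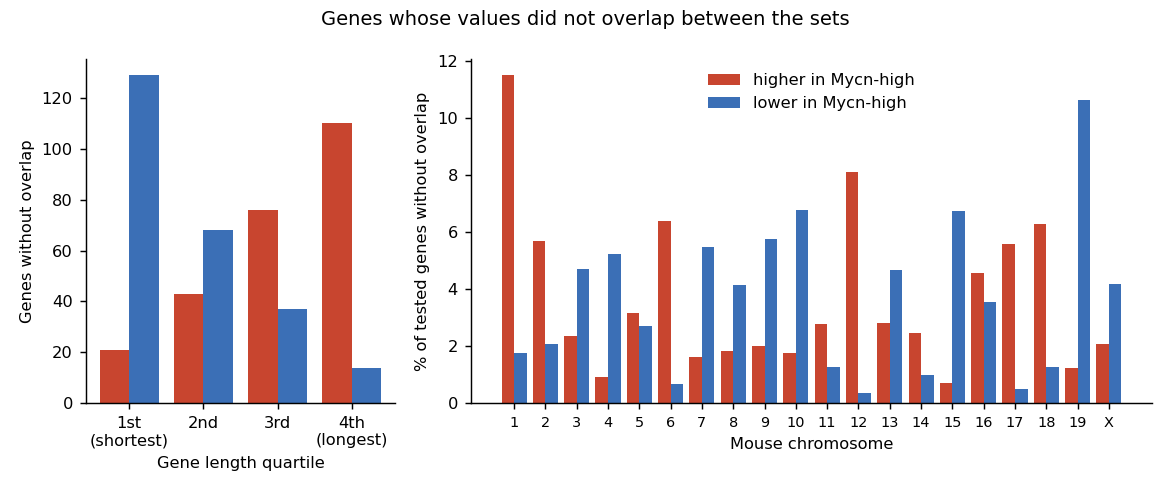
Genes whose values did not overlap between the sets, as counts by gene length quartile (left) and as percent of the tested genes of each chromosome (right); red is higher and blue lower in Mycn-high. Short genes are mostly lower (129 of the shortest quartile) and long genes mostly higher (110 of the longest).

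The E-box CACGTG, which reads the same on both strands, was looked for from 250 bases before to 50 bases after the start of each gene (GRCm39, GENCODE M39). It was found in 9.36% of 6988 tested genes with a window, in 9.20% of the 250 genes higher without overlap and in 12.1% of the 248 lower. Among the ribosome biogenesis and MYC target genes, 7 of 38 had it. Mycn, Mis12, Trib2, Slc6a2, Gal and Mfge8 had none in this window. It was present in Gtf2a1, the gene most like Mycn, in Rps20, called apart and lower, and at 2 places in Th, which are shown to let the flanks be compared, with the E-box in capitals and each written along the strand of its gene.
Gtf2a1, chr12:91557257-91557286, minus strand: cggaagccgcgcCACGTGacccgccgtccc
Rps20, chr4:3835620-3835649, minus strand: cacccggatgcgCACGTGctttataagcgc
Th, chr7:142484968-142484997, minus strand: tgctaaagcaatCACGTGaaagaatgtttt
Th, chr7:142484908-142484937, minus strand: tgctaaagcaaaCACGTGagaggacccggg
The site of Gtf2a1 begins 13 bases before the annotated start of the gene and that of Rps20 32 bases after it. The Th sites begin 120 and 60 bases before the start. The start used was the outer end of the annotated gene record, which for Th spans chr7:142443466-142484865. Where transcription of Th starts in these tumors was not tested, so the sites are not shown to lie in its promoter. Gtf2a1 and Th were not without overlap between the sets. By the shares above, genes with the site were found among those higher and those lower without overlap, and a match is a description of the letters.

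The same fit was run in the 8 TIM tumors, which the choice of sets did not use. Mouse Mycn spans 1.29 there on the log2(FPKM + 1) scale, against 2.69 in TI, and the highest corrected value of a gene was at least 76103 FPKM in each TIM library against 326 to 926 FPKM in TI libraries. No gene (0%) passed the FDR with limma (smallest 0.951), and 259 (3.7%) had an unadjusted p below 0.05. Gal ranged from 0.127 to 24.0 FPKM in TIM with a slope of -0.42 ± 0.97 (SE, limma, FDR 0.97), and Mfge8 had a slope of -0.69 ± 0.919 (SE, limma, FDR 0.951). Of the 16 genes called apart in TI, 12 had a slope of the same sign in TIM and 0 reached an unadjusted p below 0.05. Slc6a2 was at 0.185 to 0.585 FPKM in TIM with a slope of 0.00. Of the 1160 genes at an unadjusted p below 0.05 in TI, 893 had the same sign in TIM, and 29 also reached it in TIM with the same sign against 3 with the opposite sign. The share with the same sign over all tested genes was not computed. These counts, and the 12 of 16 above, therefore have no background to be read against. Ribosome biogenesis and MYC target genes had a median slope of 0.33 in TIM with 7 of 38 at an unadjusted p below 0.05, all positive, and Hspd1 and Cad were among these with slopes of 1.09 and 0.75. Ribosomal protein genes had a median slope of -0.27 with none at that p. The cell cycle lists had median slopes of -0.02 (S phase) and 0.01 (G2 and mitosis), and immediate early genes one of 0.42, opposite to that of -0.51 in TI. By length quartile the median slope in TIM ran from -0.17 for the shortest to 0.20 for the longest, the order seen in TI. The difference of the slopes, TIM minus TI, passed the FDR for 0 genes (limma, smallest 0.993) and was at an unadjusted p below 0.05 for 260, among them Fos, with a slope difference of 2.82 (limma, FDR 0.993).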

How the data were processed

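Poly(A)-enriched, strand-specific libraries of frozen tissue were sequenced by the study. The authors trimmed reads with cutadapt 2.8, aligned them with HISAT2 2.1.0 to mm39 and counted them with featureCounts 2.0.0, per the labels' processing notes. The authors then removed a batch effect from these counts with ComBat-seq (sva 3.46.0) and applied TMM scaling in edgeR 3.40. The deposited values are FPKM of 21833 protein-coding genes, with gene length; the deposited comparisons of groups (fold changes, p-values) were not used. ComBat-seq can move the values of low genes. Value times length was a whole multiple of 1 step for 100% of entries (tolerance 0.01), which gave recovered, corrected reads: these are not the sequencing depth, and intervals from them would cover counting error only.

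Columns were assigned to groups by name. log2(FPKM + 1) was fitted with limma 3.58.1 (lmFit, eBayes with trend, two-sided) in R 4.3.3, within TI, within TIM, and in both for the slope difference. The tested genes had at least 1 FPKM in at least 4 TI libraries. On simulated data for the TI fit (6996 genes, 200 changed), 92.5% of slopes of 1 and 44.5% of slopes of 0.5 were recovered, and 4.15% and 3.26% of calls were false. The noise was drawn independently for each gene, whereas in the tumors the first principal component held 39.7% of the variance. These rates therefore do not carry over to the fit of the tumors. Gene positions came from GENCODE M39 on GRCm39 (mm39), with 21687 genes matched by Ensembl ID. Genes named are a panel of 14 (1 of them is not reported here), the largest differences among genes called apart (up to 12 each way), the 5 smallest p each way, the 5 most like Mycn and up to 4 of each list with the largest difference. Members, lists and panel were chosen with earlier results of these data known, and the adrenergic and mesenchymal lists are the study's own. Alternatives were another pseudocount, filter, scaling, threshold, covariate and split, and each tumor left out. Leaving out tumors 1 and 3 together was chosen after seeing the data.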

Additional observations from a re-analysis of the deposited data

Results flagged for a closer look

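Within each set of 4 TI tumors, 96 groups of values (named genes and gene lists) were searched for 1 tumor far from the other 3 by Dixon's ratio, and 5 were found. Chance flags about 1 in 20 groups, so this number is near what chance gives. Mycl was highest in tumor 7 of Mycn-high (2.25 FPKM), and Lin28b was highest in the same tumor at 0.00992 FPKM, with the other 3 at 0. With 3 values tied at 0, any value above 0 gives a ratio of 1. The Lin28b flag, counted among the 5, was therefore fixed in advance. Alk was lowest in tumor 4 of Mycn-low (0.905 FPKM). Cebpb was highest in tumor 6 of Mycn-high (2.01 FPKM). The immediate early genes were highest in tumor 1 of Mycn-low, at a median of 1.25 on the log2(FPKM + 1) scale relative to the mean of the 8 tumors. That tumor also had the highest endothelial sum, and the part of one in the other was not tested.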

How the results depend on the processing

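Counts of genes depended on the processing. Genes called apart and higher (3) were 13 with a pseudocount of 0.1, 0 with at least 1 FPKM in every library, 15 with rescaled FPKM, 42 with the 3 highest against the 3 lowest, 24 with a difference of at least 0.58, 6 without tumors 1 and 3, and 3 to 19 with 1 tumor left out. Genes called apart and lower (13) were 20, 45 and 88 with the pseudocount, the 3 against 3 and the looser difference, 39 without tumors 1 and 3, and 12 to 49 with 1 tumor left out. Genes higher without overlap (250) were 145, 670 and 818 with the strict filter, no filter and 3 against 3, 685 without tumors 1 and 3, and 303 to 621 with 1 left out. Genes lower without overlap (248) were 427 without a filter, 585 with 3 against 3, 645 without tumors 1 and 3, and 284 to 541 with 1 left out. By construction, sets with fewer tumors overlap less. Genes past the FDR in TI (2) were 5 with the pseudocount, 1 with the mitosis score as a covariate, 1 without a filter, 1 with the rank of Mycn, 0 (748 at an unadjusted p below 0.05) with the spread shared with TIM, 1 without tumors 1 and 3, and 1 to 10 with 1 tumor left out (10 without tumor 3). limma-voom on the recovered reads gave 2. The median of adrenergic core factors was 0.0863 without tumors 1 and 3; the other list medians moved by less than the spread between tumors. Of these, S phase and G2 and mitosis turned from positive to -0.09 and -0.21 there. Over the slopes of named genes and their alternatives, 12 values lost the FDR call, 11 gained one and 308 did neither. No called gene changed sign, and the cause of these changes was not tested beyond what is said of overlap. The 8 TI tumors limit what can be called: 44.5% of simulated slopes of 0.5 were recovered, with noise drawn independently for each gene. The share in the tumors, where genes vary together, was not measured. No paired analysis was possible because the columns carry no replicate numbers that match the sample titles.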
